A study of Mus musculus with 8 samples.

Results

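Integrins, laminins and nidogens are the genes of the contact between a muscle cell and the basement membrane around it. The set was taken by symbol: every gene whose symbol is Itga, Itgb, Lama, Lamb, Lamc or Nid followed by further letters or digits, without the integrin-binding proteins and Itgbl1. The symbols matched 40 genes, namely 18 integrin alpha, 9 integrin beta, 11 laminin and 2 nidogen genes. A gene was kept in a table with the status OK in both columns and at least 1 FPKM (fragment counts scaled by transcript length and by the mapped fragments of the library) in either column, which left 30 of the 40 in at least 1 table, of 13602 genes kept in any table.

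Integrins are receptors made of an alpha and a beta chain that bind matrix proteins outside the cell and, through talin, kindlin and filamin, the actin skeleton inside. Laminins are trimers of an alpha, a beta and a gamma chain that form the sheet-like base of the basement membrane, and nidogens link that sheet to the type IV collagen network. In skeletal muscle the main laminin receptor is alpha7 beta1 integrin (Itga7 with Itgb1), which works beside dystroglycan, and loss of laminin alpha2 (Lama2) or of integrin alpha7 causes muscular dystrophy.

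The libraries came from primary myoblasts grown from sorted satellite cells, the stem cells of muscle, of mice of the strain B6/129, and the study compared cells with altered UTX, the H3K27 demethylase encoded by Kdm6a, with controls. Cells positive for TdTomato were sorted, grown in Ham's F10 with 20% fetal calf serum, 2.5 ng/mL FGF and 2.5 µM 4-OH tamoxifen, and differentiated for 24 h; the controls received the same. The 8 libraries were 1 each of female WT (Pax7-CreER with Rosa26-Floxed-TdTomato), female KO (the same alleles plus UTX-Floxed), male WT and male KO, and 2 each of KI and Ctrl-KI, both female. GEO's labels give no genotype for the male, KI and Ctrl-KI samples, do not say what the KI allele is, give no ages and do not say whether libraries came from separate animals. In the female animals with a stated genotype, Pax7-CreER limits recombination to cells that express Pax7.

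Values were deposited in 3 tables, female KO with WT, male KO with WT, and KI with Ctrl-KI. WT and Ctrl-KI are called controls below, and the values of a pair are given as control and then mutant. In the KI table the 2 libraries of a group share 1 pooled column, and every other column is 1 library, so no single comparison has a replicate check. The tables were estimated separately, and levels were not tested across them. Ratios are log2((mutant FPKM + 1)/(control FPKM + 1)) within a table, which understates the change of genes near 1 FPKM. Read depth is unknown from FPKM. The most frequent mutant-to-control ratio of values under 0.3 FPKM, which depends on what 1 read is worth, was 0.664 in the female, 0.979 in the male and 0.841 in the KI table. The median width of the deposited intervals was 119% (female), 171% (male) and 40.0% (KI) of the control FPKM. Kdm6a was 20.8 FPKM in the female control and 16.9 in its KO, 7.87 and 2.08 in the male pair, and 12.8 and 13.2 in Ctrl-KI and KI cells. Which exons are floxed is not in the labels, so this gene-level value checks the KO labels only in part. Loci with no symbol took 72.8% of all FPKM in the male control and 86.1% in its KO, 57.1% in Ctrl-KI and 77.6% in KI cells, and 0.0% in the female table. Scaling every column to a fixed sum over all loci therefore moves the median ratio of all genes to -0.70 in the male and -0.77 in the KI table, from -0.02 and -0.04.

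Nid1 and Lamb1 were at least 2-fold higher in all 3 tables, and Itgb6 was at least 2-fold lower in all 3. Nid1 encodes nidogen-1 and Lamb1 the laminin beta1 chain, which pairs with gamma1 in most laminins of muscle. Itgb6 encodes the integrin beta6 chain, known from epithelia, whose alphav beta6 receptor activates latent TGF-beta. Of the 17 members kept in all 3 tables, 2 were at least 2-fold higher in every one, where 0.586% of all genes were, and 1 was at least 2-fold lower in every one, where 0.123% were.

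Nid1 (mm9 chr13:13529869-13604542) was 40.4 FPKM in the female control and 99.99 FPKM in the KO, with intervals of 18.5 to 62.3 and 40.5 to 159.5. In the male pair it was 2.87 and 67.1 FPKM (intervals 0.406 to 5.34 and 17.9 to 116). It was 1.08 FPKM in Ctrl-KI and 39.7 FPKM in KI cells (intervals 0.849 to 1.31 and 32.2 to 47.2). The mutant column was thus the higher in every pair, the intervals overlapped only in the female pair, and the female WT library was well above both other controls. The FPKM ratio was 2.47, 23.3 and 36.9, and the log2 ratio 1.29, 4.14 and 4.29, across the female, male and KI tables. Scaled over all loci, the log2 ratio was 3.12 in the male and 3.45 in the KI table.

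Lamb1 (mm9 chr12:31950159-32014504 in the female table) was 16.2 FPKM in the female control and 37.8 in its KO. It was 25.5 FPKM in the male control and 93.7 in its KO, and 13.3 FPKM in Ctrl-KI and 28.4 in KI cells. Each mutant column was above its control, with intervals that were apart in the KI table (10.8 to 15.8 and 23.0 to 33.7) and overlapped in both KO tables. The log2 ratios were 1.17, 1.84 and 1.04. Scaled over all loci, they stayed above 0, at 1.38, 1.03 and 0.24, of which the last, in KI cells, is under 2-fold.

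Itgb6 (mm9 chr2:60436349-60560660 in the female table) was 11.7 FPKM in the female control and 4.91 in its KO. It was 39.0 FPKM in the male control and 8.69 in its KO, and 33.8 FPKM in Ctrl-KI and 15.4 in KI cells. All 3 mutant columns were below their controls, with intervals apart only in the KI table (27.4 to 40.2 and 12.5 to 18.3). The control-to-mutant FPKM ratio was 2.39, 4.49 and 2.19, and the log2 ratio -1.11, -2.04 and -1.08. Under scaling over all loci it was -1.02, -2.59 and -1.84, beside medians of 0.10, -0.70 and -0.77 over all genes.

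Itgav lay at the 2-fold line in every table. It encodes integrin alphav, which pairs with beta1, beta3, beta5, beta6 and beta8 to bind fibronectin, vitronectin and latent TGF-beta. Its level (mm9 chr2:83564554-83647073 in both KO tables) was 15.4 FPKM in the female control and 31.7 in its KO, 17.2 and 35.6 FPKM in the male pair, and 15.9 and 34.6 FPKM in Ctrl-KI and KI cells. The mutant columns lay between 31.7 and 35.6 FPKM and the controls between 15.4 and 17.2 FPKM, with intervals apart in the KI table. The log2 ratios were 0.999 (just under the line), 1.01 and 1.07, and under scaling over all loci 1.20, 0.23 and 0.27.

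Nid1, Lamb1 and Itgb6 are the members past 2-fold in every table, and Itgav is, of the members kept in all 3, the one nearest to that, so the 250 bases before their RefSeq starts are shown; Itgav was added after its values were seen. The 4 windows are from the RefSeq promoter table of build GRCm38.p6, which differs from the mm9 build of the deposited loci: Nid1 chr13:13437352-13437601 on the plus strand, Lamb1 chr12:31265043-31265292 on the plus strand, Itgb6 chr2:60722604-60722853 on the minus strand (the outer of 2 windows) and Itgav chr2:83724147-83724396 on the plus strand. Each is written 5′ to 3′ in the direction of the gene, and capitals mark matches, on either strand, to the E box CANNTG, the GC box GGGCGG and the CCAAT box CCAAT.
Nid1: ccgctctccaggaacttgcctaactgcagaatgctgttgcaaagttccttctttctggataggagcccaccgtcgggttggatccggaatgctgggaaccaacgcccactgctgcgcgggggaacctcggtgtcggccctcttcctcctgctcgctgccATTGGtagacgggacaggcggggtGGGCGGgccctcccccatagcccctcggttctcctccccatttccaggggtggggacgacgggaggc
Lamb1: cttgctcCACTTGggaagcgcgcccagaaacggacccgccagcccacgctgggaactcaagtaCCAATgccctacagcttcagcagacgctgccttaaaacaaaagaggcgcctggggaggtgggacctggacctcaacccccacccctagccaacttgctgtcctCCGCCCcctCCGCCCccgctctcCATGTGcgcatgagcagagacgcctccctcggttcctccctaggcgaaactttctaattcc
Itgb6: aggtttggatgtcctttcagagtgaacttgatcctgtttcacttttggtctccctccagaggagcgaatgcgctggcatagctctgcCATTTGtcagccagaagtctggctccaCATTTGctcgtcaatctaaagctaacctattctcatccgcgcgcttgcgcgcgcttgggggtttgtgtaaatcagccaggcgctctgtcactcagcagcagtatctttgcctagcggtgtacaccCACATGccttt
Itgav: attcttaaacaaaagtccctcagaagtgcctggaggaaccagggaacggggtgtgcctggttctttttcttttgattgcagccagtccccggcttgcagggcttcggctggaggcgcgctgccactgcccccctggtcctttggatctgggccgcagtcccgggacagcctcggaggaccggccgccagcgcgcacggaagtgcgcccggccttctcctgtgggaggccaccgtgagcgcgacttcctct
The Lamb1 window held 2 CANNTG matches, starting 243 and 61 bases before the start, 2 GGGCGG matches at 84 and 75 bases and 1 CCAAT match at 187 bases. The Nid1 window held 1 GGGCGG match at 67 bases and 1 CCAAT match at 91 bases. Itgb6 held 3 CANNTG matches, at 163, 136 and 11 bases, and no letters of the Itgav window matched. CAGCTG (a form of CANNTG), the AP-1 motif TGANTCA and the TATA box TATAAA, searched on both strands too, matched in none of the 4 windows. Over all 32851 windows of the table, cut to the same 250 bases, 66.2% held CANNTG, 13.0% CAGCTG, 6.75% TGANTCA, 32.7% GGGCGG, 33.8% CCAAT and 12.4% TATAAA. The windows of Nid1 and Itgav were each 64.4% G and C, Lamb1 62.0% and Itgb6 52.0%, where the median window was 52.4%. A match is a run of letters and was not tested as a binding site.

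**Figure D1:**
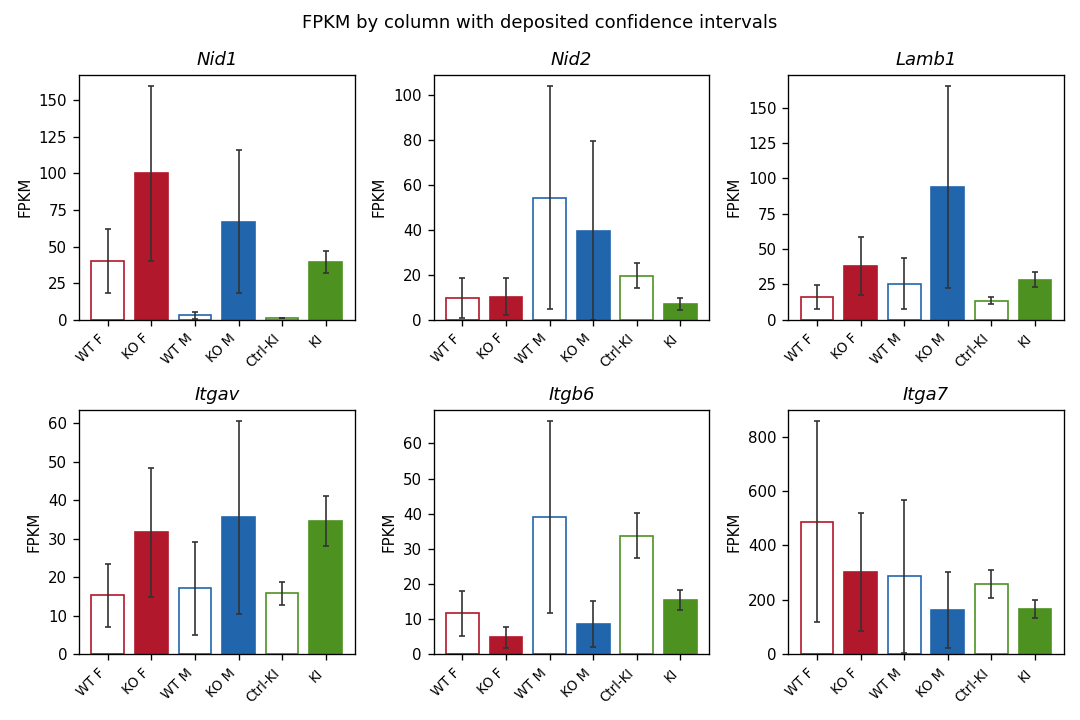
FPKM (bar height, linear axis from 0) of Nid1, Nid2, Lamb1, Itgav, Itgb6 and Itga7 in the control (open bars) and mutant (filled bars) column of each table; error bars are the deposited confidence intervals, and KI and Ctrl-KI bars are pooled columns of 2 libraries. Nid1, at 40.4, 2.87 and 1.08 FPKM in the 3 controls, stands at 99.99, 67.1 and 39.7 FPKM in the mutants, and Itgb6 is below its control in all 3 tables.

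Sums of markers of several other cell types also differed between mutant and control columns. The summed FPKM of 13 fibro-adipogenic markers was 367 in the female control and 800.2 in its KO, 47.2 and 169 in the male pair, and 31.0 and 523 in Ctrl-KI and KI cells. Of those with at least 1 FPKM in the control, 4 of 9 were at least 2-fold higher in the female, 3 of 4 in the male and 2 of 2 in the KI table, beside 4.49%, 9.9% and 3.86% of all genes. A further 3 markers in the male and 8 in the KI table were kept only through the mutant column. The female WT library, which had the highest Nid1 of the controls, thus also had the highest sum. Col1a1, a collagen of connective tissue cells, was 0.515 FPKM in Ctrl-KI and 158 in KI cells, whereas the stromal factor Tcf21 was listed at 0 in every column, Lum at 0 in both male columns and in Ctrl-KI cells, and Pi16 at 0 in female WT cells. The sum of the 11 endothelial markers listed in all 3 tables was 25.9 and 38.4 FPKM in the female pair, 3.53 and 74.2 in male, and 3.79 and 11.3 in Ctrl-KI and KI cells. Of those with at least 1 FPKM in the control, 0 of 9, 1 of 2 and 1 of 2 were at least 2-fold higher, and 3 more in the male table were kept only through the KO column. Tie1, a receptor of endothelial cells, was listed at 0 in male WT and Ctrl-KI cells and Emcn in Ctrl-KI cells. Emcn was 0.0268 FPKM in the male control and 40.6 in its KO. It was thus kept there only through the KO column and made up most of the male KO sum. In the same male KO library Kdr, Flt1, Tek and Tie1 were at most 0.380 FPKM. Vwf was lower in each mutant, at 3.07 and 1.96, 0.697 and 0.559, and 0.482 and 0.330 FPKM. The sum of the 8 immune markers listed in all 3 tables, a list that holds the member Itgam, was 1.79 and 4.75, 1.51 and 9.72, and 1.05 and 35.5 FPKM in the female, male and KI pairs. Lyz2 made up most of the male KO and KI sums, at 0.681 and 7.94 FPKM in the male and 0.282 and 31.0 in the KI pair. Itgam was lower in each mutant, at 0.451 and 0.338, 0.700 and 0.149, and 0.689 and 0.331 FPKM. Only 1 marker of that list, in the female table, was kept with a control of at least 1 FPKM, and it was under 2-fold. The leukocyte marker Ptprc was listed at 0 in female WT cells and at most 0.224 FPKM elsewhere. The macrophage marker Emr1 was listed at 0 in both WT libraries, Aif1 in male WT cells and Tyrobp in both female KO table columns and in Ctrl-KI cells. The sum of 10 pericyte and smooth muscle markers was 1499 and 783, 3254 and 1520.1, and 3511 and 2966 FPKM. Without Acta2 and Des, which muscle cells also express, the other 8 summed to 131 and 162, 91.9 and 156, and 57.1 and 223 FPKM, higher in each mutant. Tagln alone gave 83.4 and 124 FPKM of the male sums, from a locus with a status other than OK. The 5 Schwann and glial markers listed in all 3 tables summed to at most 5.73 FPKM in any column. In such bulk samples fewer cells of a type and less RNA per cell cannot be told apart, and the part of these markers in the results was not tested.

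The cells also differed in their muscle and cell cycle genes. Myoblast genes summed to 3044 FPKM in the female control and 1599 in its KO, 7978 and 3122 in male, and 7476 and 6180 in Ctrl-KI and KI cells. Of these 8 genes 7 were below their control in each table. The other was Pax7 in both KO tables, at 4.33 and 5.54 FPKM in the female and 5.82 and 16.3 in the male pair. In the KI pair it was Myf5, at 5.91 and 8.76 FPKM. Of 11 contraction genes kept among females 7 were at least 2-fold lower (4.4% of all genes), as were 9 of 10 in males (6.47%) and 0 of 11 in the KI pair (0.893%). This contraction list also holds the transcription factors Myog and Mef2c, and its Myog and Des are in the myoblast sum too. Ckm, muscle creatine kinase, was the lowest by ratio in both KO tables, at 147 and 20.2 FPKM in the female and 110.0 and 6.82 in the male pair; the highest were Ttn in females (48.7 and 32.3) and Des in males (1162 and 640.1). Of 8 cell cycle genes 5 were at least 2-fold higher in the female table (4.49% of all genes) and 8 in the male table (9.9%). With a male control of at least 1 FPKM they were 6 of 6, and 0 of 4 kept in the KI table were higher (3.86%). Mki67 was the highest of them in females (2.65 and 13.3 FPKM) and Top2a in males (2.62 and 18.1), and the lowest were Birc5 in females (5.74 and 8.47) and Ccna2 in males (4.70 and 17.2). Under scaling over all loci 7 of 11 contraction genes were at least 2-fold lower in KI cells, with a median ratio of -1.01 beside -0.77 over all genes. The share of all genes past 2-fold under this scaling was not counted. The part of the muscle and cell cycle genes in the member values was not tested.

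For a test of the KO across the sexes, limma was run on the female and male ratios. Its error combines a gene's own gap between the sexes with the gap usual for genes of similar level. The first has 1 degree of freedom and the second 4.53. Over 10482 genes, 0 rose and 0 fell at an adjusted p of 0.05 (0.0% in each direction), so the count of 0 among the 19 members kept in both KO tables says nothing particular about them. The p-values and SE thus rest on spread between the sexes, the gene's own and that of other genes, and not on replicates within a sex. Without adjustment, 1000 genes were higher and 1079 lower at p below 0.05, among them 6 members. Lamb1 had the smallest adjusted p of the members in limma (mean log2 ratio 1.51 ± 0.26 SE, adjusted p = 0.0922), followed by Itgb6 (-1.58 ± 0.30, adjusted p = 0.0999). Both had the same sign in 2 of 2 sexes. Itgav had 1.004 ± 0.22 (adjusted p = 0.112) and Nid1 2.71 ± 0.64 (adjusted p = 0.120) in the same limma fit. Itga7 had -0.74 ± 0.19 (adjusted p = 0.137) and Itgb8 1.10 ± 0.32 (adjusted p = 0.157). Itgb8 entered the fit only through its male KO column (0.517 and 3.41 FPKM in the male pair). Of the 19 members, 13 had the same sign in both sexes and 6 opposite signs. The same split over all 10482 genes was not counted, so these counts say nothing particular about the members.

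The female table kept 27 members, of which 5 were at least 2-fold higher (4.49% of all 12344 genes) and 1 lower (4.4% of all genes). The higher ones were Itgb3, Itga2, Lama4, Nid1 and Lamb1, and the lower one Itgb6. The intervals were apart for 2 members, Itga2 and Itgb3, and for 0.899% of all genes. The male table kept 21, of which 4 were higher (9.9% of all 11440 genes) and 2 lower (6.47%). These were Nid1, Lamb1, Itgb8 and Itgav on the higher side, with Itgb6 on the lower. Only Nid1 had intervals apart, as had 0.865% of all genes. The KI table kept 23, of which 10 were higher (3.86% of all 11084 genes) and 2 lower (0.893%). Intervals were apart for 15, of which 12 were higher, where 12.0% of all genes had intervals apart. Of the 10 higher members, 6 (Itga1, Itga8, Itga9, Itga11, Itgb3 and Lama4) had under 1 FPKM in Ctrl-KI cells and so passed the filter only through the KI column. These 6 are also among the 12 higher members with intervals apart, so the count of 15 rests in part on that filter. Among the 17 with at least 1 FPKM in the control, 4 were at least 2-fold higher, namely Itgav, Itgb5, Lamb1 and Nid1. The same limit touched 2 of the 21 members kept in the male table (Itgb8 and Lamb3), and 3 of the other 19 were higher. Scaling over all loci turned the split of higher to lower members from 4 and 2 to 2 and 5 in the male table and from 10 and 2 to 3 and 5 in the KI table. How many of all genes were past 2-fold under that scaling was not counted, so the turned splits say nothing particular about the members. The median member ratio was 0.04, 0.44 and 0.53 across the female, male and KI tables, beside -0.08, -0.02 and -0.04 over all genes. Under scaling over all loci the member medians were 0.21, -0.25 and -0.40, beside 0.10, -0.70 and -0.77 over all genes, so the direction of the male and KI medians depends on the scaling.

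**Figure D2:**
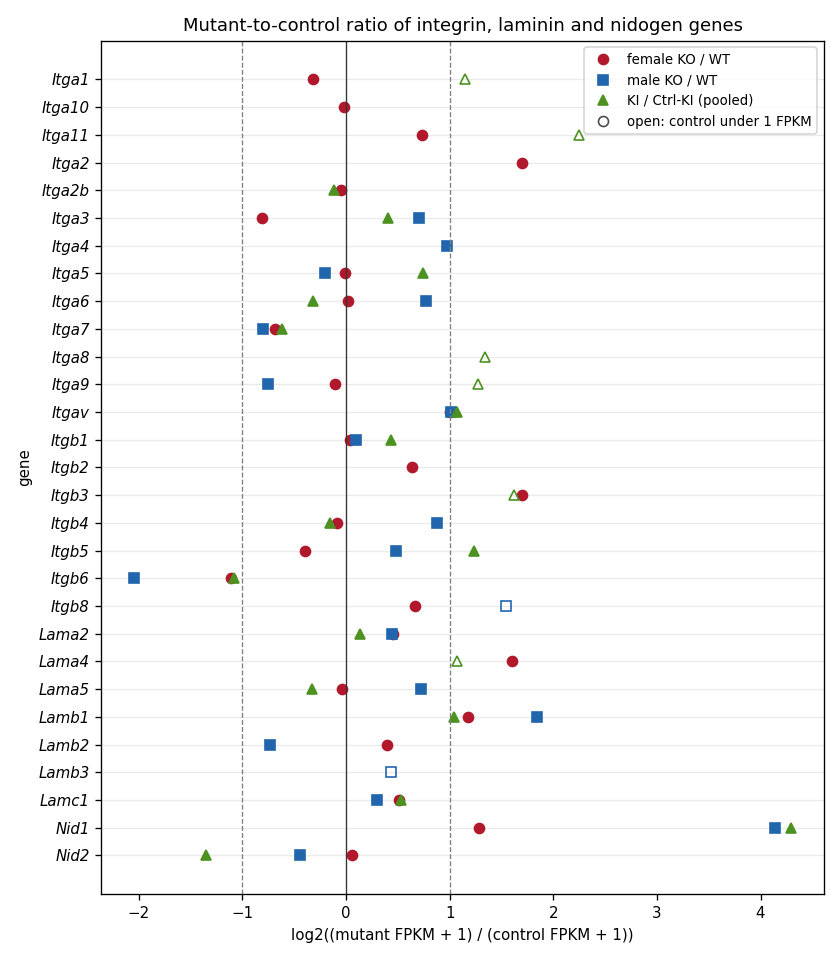
Log2 ratio of mutant to control (x axis, pseudocount 1 FPKM) for 29 of the 30 members kept in at least 1 table; symbols mark the 3 tables, open symbols a control under 1 FPKM, and dashed lines 2-fold. Nid1 has ratios of 4.14 and 4.29 in the male and KI tables against 1.29 in the female table, and the Itgb6 points are left of -1 in all 3.

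The filter of 1 FPKM decided which low members entered. In the female table Itgb4 (1.22 and 1.09 FPKM) was just inside and Lamb3 (0.952 and 0.456) just outside. In the male table Lamb3 (0.683 and 1.27) was just inside and Itgam just outside with at most 0.700 FPKM. In the KI table Lama4 (0.00344 and 1.11) was just inside and Itgb8 (0.503 and 0.792) just outside. The 10 members under 1 FPKM in every column were Itgad, Itgae, Itgal, Itgam, Itgax, Itgb2l, Itgb7, Lama1, Lama3 and Lamc3, most of them leukocyte integrins or chains of epithelial laminins. In the KI table Itga10 and Lamb2 lay on loci merged with other genes and were not used there. The merged locus of Lamb2 and Usp19 was at 100.5 and 92.6 FPKM.

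Among the nidogens, Nid2 did not share the pattern of Nid1. Nid2 (mm9 chr14:20570479-20643045) was 9.74 FPKM in the female control and 10.2 in its KO, and 54.4 and 39.7 FPKM in the male pair. In the KI table it was 19.5 FPKM in control and 7.07 in KI cells, a log2 ratio of -1.35 with intervals apart (14.0 to 25.1 and 4.41 to 9.72). Its KO ratios were 0.06 in females and -0.44 in males, the latter -1.19 under scaling over all loci, where the median of all genes was -0.70. Nidogen-2 is the second of the pair of mouse nidogens and can stand in for nidogen-1 in basement membranes. Nid1 made up 80.6% of the summed nidogen FPKM in the female control and 90.8% in its KO. Its share was 5.02% in the male control and 62.8% in its KO, and 5.23% in Ctrl-KI and 84.9% in KI cells. Nid2 was thus the more abundant nidogen per length in male WT and Ctrl-KI cells, and Nid1 in all 3 mutant columns and in female WT cells. The sum of both was 50.2 and 110.2, 57.3 and 106.8, and 20.6 and 46.8 FPKM in the female, male and KI pairs.

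Laminin alpha chains decide which receptors a laminin binds. Lama2, the chain of the adult muscle laminin, was 10.4 FPKM in the female control and 14.5 in its KO, 6.44 and 9.11 in male, and 6.21 and 6.93 in Ctrl-KI and KI cells, all with overlapping intervals. Lama5, a chain of laminins found early in muscle and around vessels, was 22.8 and 22.2, 10.9 and 18.7, and 12.8 and 10.001 FPKM in the same pairs, with log2 ratios of -0.04, 0.73 and -0.33. Lama4, the alpha4 chain typical of vessel and nerve basement membranes, was 10.9 FPKM in the female control and 35.1 in its KO (log2 ratio 1.60, intervals 5.13 to 16.7 and 15.9 to 54.3, which overlap). In the male table Lama4 was 0.00623 and 0.152 FPKM, under the filter, and in the KI pair 0.00344 and 1.11 (log2 ratio 1.07). Only the female libraries thus had more than 2 FPKM of Lama4. Its share of the kept alpha chain FPKM was 24.8% in the female control and 48.9% in its KO, and 6.16% in KI cells. Lama5 made up 51.7% and 30.9% in female, 62.9% and 67.3% in male, and 67.4% and 55.4% in the KI pair, and Lama2 23.6% and 20.3%, 37.1% and 32.7%, and 32.6% and 38.4%.

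Among the beta chains, Lamb2, which is concentrated at the neuromuscular junction, was 87.8 FPKM in the female control and 115.6 in its KO and 36.8 and 21.8 in the male pair, with log2 ratios of 0.39 and -0.73. Lamb1 made up 15.6% of beta chain FPKM in the female control and 24.6% in its KO, and 40.4% and 80.3% in the male pair. Lamb3, of epithelial laminin-332, was kept only in the male table, with a log2 ratio of 0.43. Lamc1, the gamma chain of most laminins, was 33.3 and 47.9 FPKM in female, 14.96 and 18.6 in male and 14.5 and 21.4 in the KI pair. Its log2 ratios were 0.51, 0.30 and 0.53, with intervals apart only in the KI table. Under scaling over all loci the male and KI ratios were below 0 for Lama2 (-0.23 and -0.55) and Lamc1 (-0.42 and -0.25). Of the 7, 7 and 6 laminin chains kept across the female, male and KI tables, 2, 1 and 2 were at least 2-fold higher, and 2 of 7, 1 of 6 and 1 of 5 with a control of at least 1 FPKM, beside 4.49%, 9.9% and 3.86% of all genes.

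**Figure D3:**
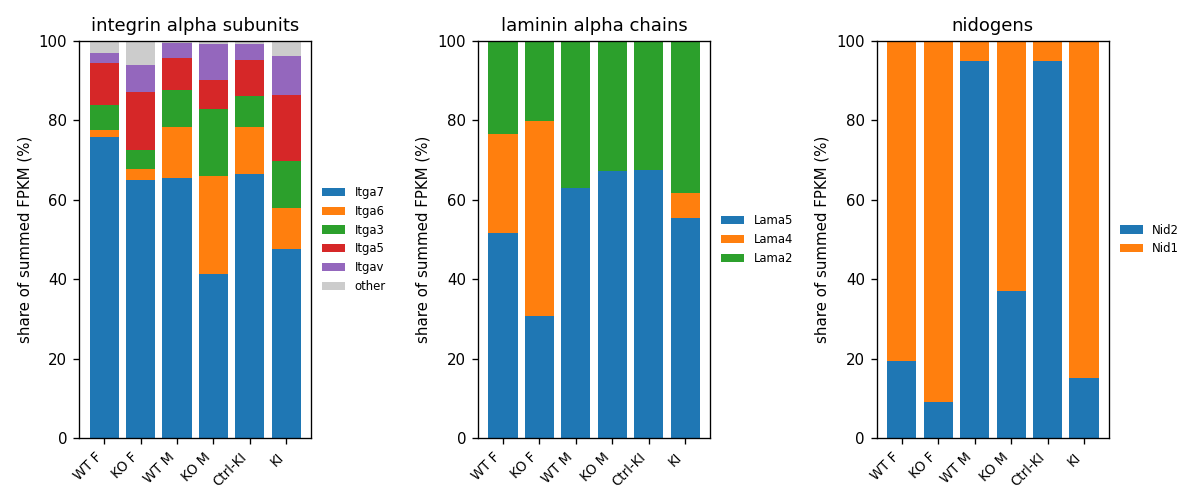
Share (percent of the summed FPKM of the class) of the named chains in each column, for integrin alpha chains, laminin alpha chains and nidogens, with the remaining kept members as other. Nid1 goes from 5.02% to 62.8% of nidogen FPKM between male WT and KO cells, and Itga7 from 65.4% to 41.3% of integrin alpha FPKM.

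Itga7 was the most abundant integrin alpha gene per length in every column. Its level (mm9 chr10:128370869-128398044 in the female table) was 487 FPKM in the female control and 303 in its KO, 287 and 165 in the male pair, and 259 and 168 in Ctrl-KI and KI cells. The mutant columns were lower in all 3 tables, by log2 ratios of -0.68, -0.80 and -0.62, none past 2-fold and with intervals apart only in the KI table (208 to 311 and 136 to 200.4). With every column scaled over all loci, the male and KI ratios of Itga7 were past 2-fold, at -1.58 and -1.45, and the female one was -0.50. That scaling moves the median of all genes to -0.70 in the male and -0.77 in the KI table, so it shows no stronger change particular to Itga7. Its share of integrin alpha FPKM was 75.7% and 65.0% in female, 65.4% and 41.3% in male, and 66.5% and 47.7% in the KI pair. Itga7 is turned on during myoblast differentiation, and the contraction genes were lower by 2-fold in 7 of 11 and 9 of 10 cases in the KO tables but in 0 of 11 in the KI pair; their part in the Itga7 values was not tested.

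Itga6, the other laminin receptor chain of myoblasts, was 12.6 and 12.8 FPKM in female, 57.2 and 98.3 in male, and 45.4 and 36.2 in the KI pair, with log2 ratios of 0.02, 0.77 and -0.32. Itga3, whose alpha3 beta1 receptor also binds laminins, was 39.6 FPKM in the female control and 22.2 in its KO and 40.8 and 66.9 in the male pair. The female and male ratios of Itga3 thus had opposite signs (-0.81 and 0.70), and the KI ratio was 0.41, from 31.2 and 41.7 FPKM. Under scaling over all loci the male ratio was -0.08 and the KI ratio -0.40. Its locus is mm9 chr11:94905796-94938028, and its intervals overlapped in each pair.

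Of the alpha chains other than alphav that bind fibronectin and related ligands, Itga5 was the most abundant per length. Itga5, which with beta1 is the classical fibronectin receptor, was 68.2 and 67.9 FPKM in female, 34.5 and 29.9 in male, and 34.5 and 58.5 in the KI pair, where intervals were apart. Itga4, which binds VCAM-1 and fibronectin, passed the filter only in the male table, at 1.07 and 3.07 FPKM (log2 ratio 0.98, just under the line). Itga9, which binds tenascin-C and osteopontin, was 2.19 and 1.96 FPKM in the female and 1.41 and 0.434 in the male pair, and 0.948 and 3.72 in the KI pair. Itga8, which binds nephronectin, was kept only in the KI table, at 0.0306 and 1.61 FPKM. Itga2b, the platelet fibrinogen receptor chain, was 5.88 and 5.67 FPKM in female and 2.06 and 1.83 in the KI pair.

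Collagen receptor chains were low. Itga2 (mm9 chr13:115626120-115722249) was 2.31 FPKM in the female control and 9.78 in its KO, a log2 ratio of 1.70 with intervals of 0.678 to 3.95 and 4.35 to 15.2. It was at most 0.659 FPKM in every male, Ctrl-KI and KI column. Itga1 was 2.60 and 1.89 FPKM in female and 0.265 and 1.81 in the KI pair, and Itga11, known from fibroblasts, 1.53 and 3.21 in female and 0.154 and 4.50 in the KI pair. Itga10 was 6.23 and 6.12 FPKM in the female pair. The KI ratios of Itga1 and Itga11 were 1.15 and 2.25, with intervals apart. Of the kept integrin alpha genes, 1 of 11 was at least 2-fold higher in the female, 1 of 7 in the male and 5 of 10 in the KI table, beside 4.49%, 9.9% and 3.86% of all genes, and 0 were at least 2-fold lower in any. With a control of at least 1 FPKM the KI count was 1 of 6.

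Itgb1, the common partner of most alpha chains, was the most abundant beta gene per length in every column. It was 190.3 FPKM in the female control and 195.5 in its KO, 256 and 274 in male, and 207 and 279 in the KI pair. Its log2 ratios were 0.04, 0.10 and 0.43, which under scaling over all loci were 0.22, -0.69 and -0.40. Itgb1 made up 80.1% and 80.6% of integrin beta FPKM in female, 79.1% and 82.9% in male, and 76.6% and 76.5% in the KI pair.

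The other beta partners of Itgav set its ligand. Itgb3 (mm9 chr11:104469314-104531785), of the vitronectin receptor, was 3.51 FPKM in the female control and 13.7 in its KO, a log2 ratio of 1.70 with intervals of 1.33 to 5.68 and 6.43 to 20.9. It was 0.313 and 0.696 FPKM in the male pair, under the filter, and 0.246 and 2.83 in the KI pair (log2 ratio 1.62). Itgb3 was thus higher in each mutant column, from a low control level. Itgb5, another vitronectin receptor chain, was 27.4 and 20.6 FPKM in female, 19.95 and 28.4 in male, and 27.6 and 66.2 in the KI pair, with log2 ratios of -0.40, 0.49 and 1.23. Itgb8, whose alphav beta8 receptor activates latent TGF-beta, was 1.10 and 2.32 FPKM in the female and 0.517 and 3.41 in the male pair, with log2 ratios of 0.66 and 1.54. Of these partners, Itgb6, described above, was below its control in all 3 pairs. Itgb4, the partner of alpha6 in epithelia, was 1.22 and 1.09, 8.38 and 16.2, and 1.72 and 1.45 FPKM, and the leukocyte chain Itgb2 2.43 and 4.35 FPKM in the female pair. Of the kept integrin beta genes, 1 of 7 was at least 2-fold higher and 1 lower in the female table, 1 and 1 of 5 in the male and 2 and 1 of 5 in the KI table. Of all genes, 4.49% were higher and 4.4% lower in the female table, 9.9% and 6.47% in the male, and 3.86% and 0.893% in the KI table. With a control of at least 1 FPKM, 0 of 4 were higher in the male and 1 of 4 in the KI table, beside 9.9% and 3.86% of all genes.

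**Figure D4:**
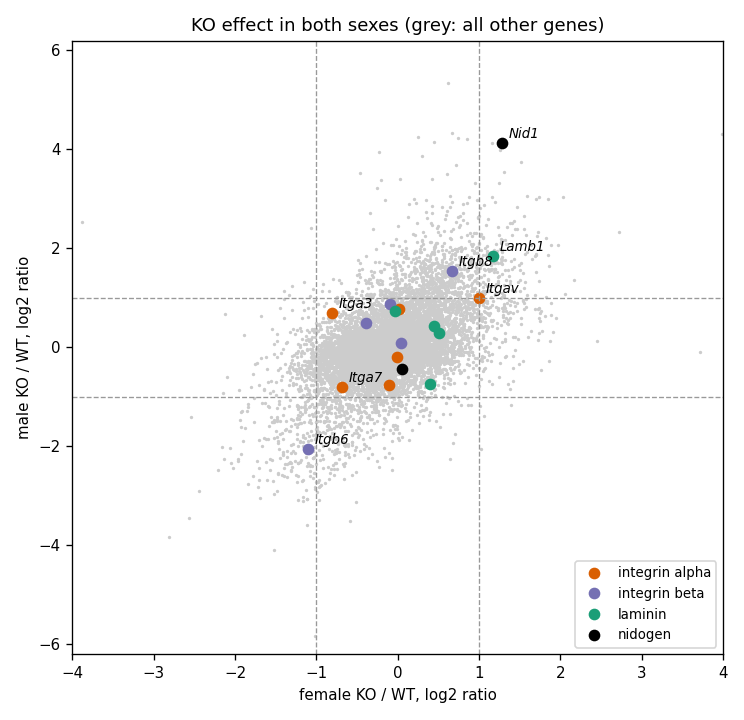
Female KO log2 ratio (x axis) against male KO log2 ratio (y axis) for 10481 of the 10482 genes kept in both KO tables; members are coloured by class, other genes are grey, dashed lines mark 2-fold, and 4 genes lie outside the axes. Nid1 and Lamb1 lie past 2-fold in both sexes and Itgb6 below it in both, while Itga3 lies at -0.81 and 0.70.

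Talin, vinculin, filamin and kinase genes link integrins to actin and signalling inside the cell. Of 35 kept adhesion partners 1 was at least 2-fold higher and 3 lower in females, 3 and 3 of 32 were in males, and 3 and 1 of 31 were in the KI pair. Of all genes, 4.49% were higher and 4.4% lower in females, 9.9% and 6.47% in males, and 3.86% and 0.893% in the KI pair. The muscle-specific integrin-binding gene Itgb1bp3 was 11.4 and 3.08, 34.0 and 4.50, and 23.5 and 8.96 FPKM, lower in every mutant. Itgb1bp2, which encodes melusin of muscle, was 227 FPKM in the female control and 41.3 in its KO, the lowest ratio (-2.43) of that list in the female table. The list medians were 0.03, 0.08 and 0.13, and under scaling over all loci 0.20, -0.60 and -0.58. limma called 0 of the 32 in the fit.

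Other genes of the basement membrane encode the type IV collagens and proteins bound to them. Of 17 kept in each table, 2, 9 and 8 were at least 2-fold higher across the female, male and KI tables (4.49%, 9.9% and 3.86% of all genes). At least 2-fold lower were 1, 1 and 0 (4.4%, 6.47% and 0.893% of all genes). The list medians were 0.28, 1.04 and 0.68 (0.47, 0.25 and 0.14 under scaling over all loci). With a control of at least 1 FPKM, 2 of 17, 8 of 16 and 6 of 15 were higher. Fbln2, a fibulin that binds nidogen and laminin, was the highest in both KO tables. It was 41.7 and 94.5 FPKM in female, 6.36 and 128 in male, and 7.08 and 97.3 in the KI pair. Col4a1, a chain of the type IV collagen that nidogens join to laminins, was 41.4 and 62.5 FPKM in the female pair (log2 ratio 0.58, intervals overlapping), 20.7 and 130.0 in the male pair and 9.03 and 79.8 in the KI pair. Its partner chain Col4a2 was 32.6 and 56.2 FPKM in the female pair (log2 ratio 0.77, intervals overlapping), 10.3 and 70.1 in the male pair and 6.16 and 48.8 in the KI pair; both were named after their values were seen. The lowest were Npnt, which encodes nephronectin, in females (88.4 and 33.5 FPKM) and Frem2, of epithelial basement membranes, in males (7.88 and 0.676 FPKM). limma called 0 of the 15 in the fit.

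Laminin receptors other than integrins had medians of -0.30, -0.79 and -0.13 across the female, male and KI tables, and of -0.12, -1.51 and -0.87 under scaling over all loci. Of 13 kept in each, 0, 3 and 0 were at least 2-fold higher (4.49%, 9.9% and 3.86% of all genes) and 3, 6 and 0 lower (4.4%, 6.47% and 0.893%). The sarcoglycan gene Sgca, of the dystrophin complex of muscle, was 80.4 and 25.8 FPKM in the female pair and 115 and 49.9 in the male pair, and 103 and 86.3 in the KI pair. Bcam, a laminin alpha5 receptor, was 57.9 and 21.1 FPKM in the female and 22.6 and 5.60 in the male pair, and 29.9 and 33.0 in the KI pair, where its log2 ratio was 0.14. Sdc3, a syndecan of satellite cells, had the highest ratio in both KO tables, at 18.4 and 35.3 and 10.8 and 38.9 FPKM. Dag1, which encodes dystroglycan, was 213 and 147, 261 and 110.5, and 258 and 181 FPKM. limma called 0 of the 13.

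Ligands of integrins other than laminins were above their control in all 14, 11 and 12 kept cases across the female, male and KI tables. At least 2-fold higher were 6, 9 and 8, and 0 were lower (4.4%, 6.47% and 0.893% of all genes). Of the kept ligands, 2 in the male and 3 in the KI table had a control under 1 FPKM. These passed the filter only through the mutant column and could only lie above their control. The share of all genes above their control was not counted. With a control of at least 1 FPKM, 6 of 14, 8 of 9 and 5 of 9 were at least 2-fold higher, beside 4.49%, 9.9% and 3.86% of all genes. Fn1, which encodes fibronectin, the ligand of alpha5 beta1 and alphav integrins, was 140.5 and 349 FPKM in female, 27.0 and 327 in male, and 20.6 and 225 in the KI pair. Tnc, the alpha9 ligand tenascin-C, was 31.0 and 63.5, 4.14 and 35.3, and 2.21 and 52.7 FPKM. Fbn1, which encodes fibrillin-1 and binds alphav integrins, was 12.4 and 27.7 FPKM in the female and 1.24 and 6.69 in the male pair, and 1.44 and 33.5 in the KI pair. Thbs2, a thrombospondin, was 5.01 and 12.8 FPKM in the female and 0.812 and 2.83 in the male pair, and 0.820 and 17.0 in the KI pair. Icam1, a ligand of leukocyte integrins, had the highest female ratio (10.1 and 28.2 FPKM) and Mfge8, a ligand of alphav integrins, the lowest (51.7 and 58.2). In males the lowest was Thbs1, at 297 and 441 FPKM. Under scaling over all loci 14 of 14, 8 of 9 and 9 of 12 kept ligands were above their control. The medians, with the ligands of low control level included, were 0.79, 1.78 and 2.42, and limma called 0 of the 11 in the fit. The fibro-adipogenic sums given above moved in the same direction, and their part in these values was not tested.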

How the data were processed

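RNA-seq of 8 mouse myoblast libraries was used, grouped by their titles. The submitters' processing notes list TopHat2 2.0.12 and Bowtie2 2.2.4, Cuffdiff and Cufflinks 2.2.1, edgeR, HTSeq 0.6.1 and bedtools 2.16.2, with mm9 as build; the gene annotation behind them was not given in the sources used here. FPKM was deposited by the authors, per the file headers, with confidence bounds (level not stated) and a status; strand use is not stated, so overlapping genes are uncertain.

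Loci with a status other than OK in either column and 49 duplicated symbols were left out of the ratios. The summed FPKM of marker lists also took in loci of any status and loci under 1 FPKM. Genes with at least 1 FPKM in a column were kept, and log2 ratios used a pseudocount of 1 FPKM. Of 555 microRNA loci within 5 bases of the RefSeq length, 537 matched it only with starts counted from 0, so printed mm9 starts are 1 higher. The KO effect was fitted with limma 3.58.1 (R 4.3.3) on the female and male ratios against 0, with an intensity trend, 1 residual degree of freedom and Benjamini-Hochberg adjustment at 0.05 over all genes; the code was tested on simulated data. The planned KI test across libraries could not be run on pooled columns. Tables and plots used python 3.11.15, pandas 2.3.3, numpy 2.4.6 and matplotlib 3.10.9.

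Named are 20 receptor and laminin genes of muscle, the 4 highest and 4 lowest members of each table, members past 2-fold in both KO tables, members of opposite sign past 1.5-fold in both, and of each other list its extremes and those past 2-fold in both KO tables; of the contraction and cell cycle lists only the extremes are printed. Some genes that this rule names are not reported here. The members and lists were chosen with earlier results of these data known. Other settings tried were a pseudocount of 0.1 or 5 FPKM, a filter of 5 FPKM or none, median-centred ratios, TPM (FPKM scaled to a fixed sum) over symbol or all loci, any status, intervals apart, and no trend.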

Additional observations from a re-analysis of the deposited data

Results flagged for a closer look

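Itga3 had opposite ratios in the sexes, each past 1.5-fold: the log2 ratio was -0.81 in the female KO and 0.70 in the male KO table, with 1 library per group. The difference between the sexes was not tested. The male ratio was -0.08 when each column was scaled to a fixed sum over all loci.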

How the results depend on the processing

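No paired analysis was possible because the KI table pools its libraries in 1 column per group and every other group has 1 library; for the same reason no replicate was left out, and each sex alone is the within-sex comparison. Single ratios were recomputed for the always-named members, 54 of the 71 kept ratios; of these 54, none past 2-fold changed sign. Of their 421 values under the alternatives, 372 kept their side of 2-fold and their direction, 14 came to lie past it, 15 no longer did, and 20 under 2-fold changed sign, 15 of these with TPM over all loci. limma called 0 members under every alternative, with a smallest adjusted p between 0.0503 (filter of 5 FPKM) and 0.293 (no filter); over all genes it called 130 of 7732 with the 5 FPKM filter, 145 of 9765 with TPM over all loci, 1 with a pseudocount of 0.1 FPKM, 1 with TPM over symbol loci and otherwise 0.

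The counts of members at least 2-fold higher or lower depended on the settings as follows, and under the settings not listed stayed within 5 to 7 higher and 1 lower (female), 3 to 6 higher and 2 to 3 lower (male), and 10 to 12 higher and 2 to 3 lower (KI). In the female table, 5 higher became 8 with a pseudocount of 0.1 FPKM and 2 by intervals apart, and 1 lower became 0 with a pseudocount of 5 FPKM and 0 by intervals apart. In the male table, 4 higher became 2 with a pseudocount of 5 FPKM, 2 with TPM over all loci and 1 by intervals apart. The 2 lower became 1 with a pseudocount of 5 FPKM, 1 with median-centred ratios, 1 with TPM over symbol loci, 5 with TPM over all loci and 0 by intervals apart. In the KI table, 10 higher became 2 with a pseudocount of 5 FPKM, 4 with a filter of 5 FPKM, 3 with TPM over all loci and 4 without members under 1 FPKM in the control, an alternative chosen after seeing the data. The 2 lower became 1 with a pseudocount of 5 FPKM and 5 with TPM over all loci. Where these counts moved, the cause was not tested, except that TPM over all loci shifts the median of all genes and the last filter removes members. Read depth is unknown, and the wide intervals of both KO tables limit their values.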
